A study of Mus musculus with 20 samples.

Results

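The 9 genes of the C-type lectin receptor family carried by myeloid cells that are described here were measured in Ly6C hi and Ly6C low monocyte-derived macrophages (MoMac) of the fibrotic mouse liver: Clec4n, Clec4d, Clec4e, Clec4a1, Clec4a2, Clec4a3, Clec5a, Clec7a and Clec12a. They were taken by gene symbol from the deposited expression table, and each matched 1 row, so that the 9 members are 9 of its 59311 genes. RNA was sequenced from both subsets of 10 mice, which gave 20 libraries in 4 groups of 5. All mice were male C57BL/6 animals (C57BL/6 J in the study's methods), aged 10 to 12 weeks, and all had received carbon tetrachloride (CCl4, 0.6 ml/kg) for 4 weeks. Mice 16 to 20 received Ac-6-FP at 0.25 mg/kg, an MR1 ligand that keeps mucosal-associated invariant T (MAIT) cells from being activated, and mice 11 to 15 received its vehicle, DMSO in PBS. Livers were taken 2 days after the last CCl4 injection, no untreated liver was part of the sequencing, and both subsets were sorted as CD11b+ F4/80+ cells after Ly6G+, CD11c+ and CD3+ cells had been gated out. The questions were how the receptors differ between the subsets of a liver and whether Ac-6-FP changes them in either subset.

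C-type lectin receptors bind sugars, glycolipids and products of dying cells at the surface of monocytes, macrophages, dendritic cells and neutrophils. Some are activating and signal through the kinase Syk, either by a partner chain with an ITAM motif (FcRgamma, encoded by Fcer1g, or DAP12, encoded by Tyrobp) or by a motif of their own, and Syk acts on NF-kappaB through Card9. Others carry an inhibitory ITIM motif that recruits the phosphatases SHP-1 (Ptpn6) and SHP-2 (Ptpn11). Monocytes that enter an injured liver carry many of these receptors and later lose Ly6C as they mature into macrophages.

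All 9 members lie on mouse chromosome 6 (mm10), in 3 places. Clec4a1, Clec4a3, Clec4a2, Clec4n, Clec4d and Clec4e sit within 368 kb, from 122921848 to 123289871, together with Clec4a4, Clec4b1 and Clec4b2. Clec12a (129350244 to 129365303, plus strand) and Clec7a (129461591 to 129472779, minus strand) are part of the Dectin-1 cluster, and Clec5a lies apart (40574898 to 40585822, minus strand). No other gene of the table overlaps the span of a member. Clec4a1, Clec4a2 and Clec4a3 are close paralogs, and how the authors' counting divided reads that match more than one of them is not given in the sources used here, so their levels are less certain than those of the others.

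Promoter sequences (250 bases before to 50 after the start of the transcript, RefSeq, GRCm38.p6) were found for 8 of 9 members, all but Clec4n. The core of the site of PU.1, the factor that sets the myeloid lineage (GAGGAA, searched on both strands), occurred in 6 of 8, all but Clec4a2 and Clec4a3, and in 28.3% of 32851 mouse promoters of the same length. A C/EBP motif (TTGCNNAA) occurred in 2 of 8 (10.8% of all promoters), an AP-1 motif (TGANTCA) in 2 of 8 (7.81%) and an NF-kappaB motif (GGG, any 2 bases, TT, any base, CC) in 0 of 8 (4.79%). The 120 bases before the RefSeq start are printed for the 4 members whose mean was higher in Ly6C hi MoMac, with the PU.1 core of either strand in capitals. These are matches of letters, not measured binding.
Clec5a (chr6:40585806-40585925, minus strand): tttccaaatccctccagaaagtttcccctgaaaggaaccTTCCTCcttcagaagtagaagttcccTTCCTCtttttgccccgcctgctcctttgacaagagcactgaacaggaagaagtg
Clec7a (chr6:129472780-129472899, minus strand): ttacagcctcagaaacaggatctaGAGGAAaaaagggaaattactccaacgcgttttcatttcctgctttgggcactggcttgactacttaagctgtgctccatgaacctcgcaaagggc
Clec12a (chr6:129350124-129350243, plus strand): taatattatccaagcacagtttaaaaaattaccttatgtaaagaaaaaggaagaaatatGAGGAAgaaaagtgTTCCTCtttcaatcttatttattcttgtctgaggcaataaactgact
Clec4a2 (chr6:123122570-123122689, plus strand): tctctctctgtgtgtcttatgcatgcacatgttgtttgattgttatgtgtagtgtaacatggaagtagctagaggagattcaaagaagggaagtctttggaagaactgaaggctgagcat
Within these windows Clec5a and Clec12a held 2 cores each, Clec7a held 1 and Clec4a2 held 0.

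The values are normalized counts, reads on a gene divided by 1 size factor per library and not by gene length, so that levels are compared between libraries and not between genes. Reads on genes ranged from 5693049 to 18682437 per library. The Ly6C low library of vehicle mouse 13 stood apart: it had values above 0 for 5343 genes, against 9017 to 15766 in the others, and 2765 of the 6652 genes whose median over all libraries was at least 100 were listed at 0 in it. The receptor differences printed below that rest on it are also given without mouse 13. The number of genes detected had medians of 9749 in vehicle and 13622 in Ac-6-FP libraries of Ly6C hi MoMac and of 10379 and 14084 in Ly6C low MoMac. Ly6c2, which encodes the marker of the sort, had a mean of 6942 ± 1586 (SD, n = 5) in vehicle Ly6C hi and 637 ± 217 in vehicle Ly6C low libraries, and all 6 markers of Ly6C hi monocytes were higher in Ly6C hi MoMac (limma). Transcripts of cells outside the sort gates were found in Ly6C low libraries. Summed over each list, 6 T and NK cell markers (led by Gzma and Nkg7) ranged from 39540 to 86104 there and from 0 to 812 in Ly6C hi libraries, 7 dendritic cell markers (led by Cd209a) from 8786 to 21827 and from 27.4 to 535, and 8 neutrophil markers (led by Retnlg) from 9810 to 125978 and from 5594 to 12072, of which Mmp8 was the greater share in Ly6C hi libraries. The cells of both subsets carried Adgre1 and Itgam, which encode F4/80 and CD11b of the sort, and the macrophage markers Cd68 and Csf1r, while 6 Kupffer cell markers reached at most 899, 3 B cell markers 446, 3 hepatocyte markers 2184 and 4 endothelial markers 251.7 in any library. Of the 6 Ly6C low monocyte and macrophage markers, 2 were higher in Ly6C low MoMac and 0 were lower.

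**Figure D1:**
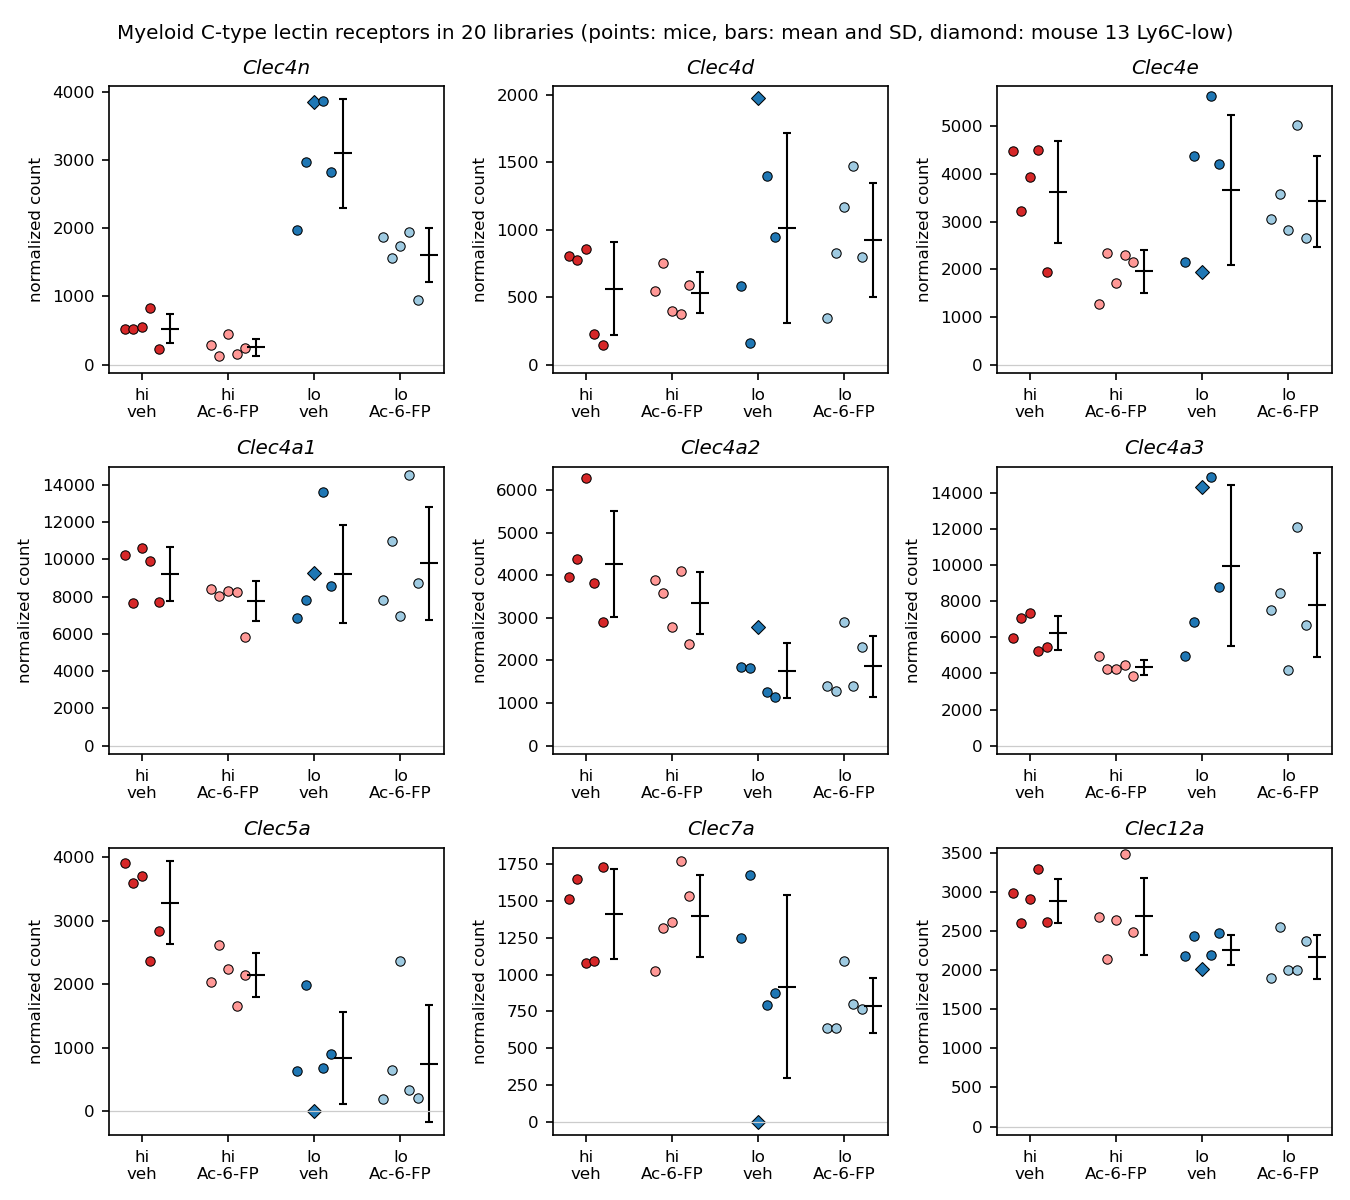
Normalized count of each receptor (linear axis from 0) in the 20 libraries, by subset (hi, lo) and treatment (veh, vehicle). Points are mice, the horizontal mark and bar beside them are the mean and SD of 5 mice, and the diamond is the Ly6C low library of mouse 13. Clec4n is the only panel in which the 10 Ly6C low points (942 to 3873) all lie above the 10 Ly6C hi points (127 to 827).

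Between the subsets, Clec4n (Dectin-2) was lower and Clec4a2 (DCIR1) was higher in Ly6C hi than in Ly6C low MoMac. Clec4n was 6.46-fold lower and Clec4a2 2.14-fold higher in Ly6C hi MoMac, as within-mouse differences over 10 mice. Clec5a and Clec7a had higher values in Ly6C hi MoMac of 9 of 10 mice, and passed the test without mouse 13 but not with it. The remaining 5 receptors differed by at most 1.65-fold and did not pass. By limma on the within-mouse difference of log2(normalized count + 1), with Benjamini-Hochberg adjustment over 17248 genes and a threshold of 0.05, 2 of 9 members were called, where 5.22% of all genes were called (1.81% higher and 3.41% lower in Ly6C hi MoMac). Without mouse 13 the count was 4 of 9, where 6.63% of all genes were called. The members' median difference was -0.14 on this log2 scale, beside -0.03 over all genes tested, and without mouse 13 these were -0.16 and -0.19.

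The Dectin-2 family, Clec4n, Clec4d and Clec4e, pairs with FcRgamma and activates Syk. Clec4n encodes Dectin-2, a receptor for fungal mannans. In vehicle mice 11 to 15, in this order, it had normalized counts of 519.5, 526, 548, 827 and 229 in Ly6C hi MoMac and 1967, 2976, 3857, 3873 and 2824 in Ly6C low MoMac. In Ac-6-FP mice 16 to 20 it had 288, 127, 452, 153 and 244 in Ly6C hi and 1874, 1559, 1733, 1938 and 942 in Ly6C low MoMac. Every Ly6C low library lay above every Ly6C hi library, also across mice and treatments, which held for 0.974% of all genes tested. The difference of Ly6C hi minus Ly6C low was -2.69 ± 0.26 on the log2 scale (SE, limma, adjusted p = 6.64e-05), it was negative in 10 of 10 mice (1.98% of all genes were lower in all 10), and the exact sign-flip test over mice gave p = 0.00195, the smallest it can give. Without mouse 13 it was -2.67 ± 0.26 (limma, adjusted p = 0.000111). Dendritic cells and neutrophils also carry Dectin-2. Of 7 dendritic cell markers 4 were lower and 0 higher in Ly6C hi MoMac, and of 8 neutrophil markers 4 were lower and 1, Mmp8, was higher (limma). Their part in the difference was not tested. In bulk samples, fewer cells of a type and less RNA per cell cannot be told apart.

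Clec4d encodes MCL, which pairs with Mincle at the cell surface. It ranged from 147 to 857 with a median of 569 over the 10 Ly6C hi libraries and from 159 to 1974 with a median of 886 over the 10 Ly6C low libraries. The ranges overlapped widely, and the difference of -0.72 ± 0.49 on the log2 scale did not pass (limma, adjusted p = 0.48, and -0.66 ± 0.52 with adjusted p = 0.524 without mouse 13). Clec4e encodes Mincle, a receptor for mycobacterial cord factor that also binds material of dead cells. Its Ly6C hi values are given below with the treatment, and over both treatments it averaged 2785 ± 1167 (SD, n = 10) in Ly6C hi and 3541 ± 1235 in Ly6C low MoMac. The Clec4e difference was -0.38 ± 0.21 on the log2 scale and did not pass (limma, adjusted p = 0.402, and -0.50 ± 0.20 with adjusted p = 0.19 without mouse 13). Of these 3 neighbouring genes, only Clec4n was called, and whether its difference exceeds that of the others was not tested.

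The members of the DCIR family described here are Clec4a1 (DCIR4), Clec4a2 (DCIR1, with an ITIM) and Clec4a3 (DCIR3). Clec4a2 had normalized counts of 3965, 4386, 6278, 3820.4 and 2912 in Ly6C hi and 1838, 1813, 2776, 1251 and 1136 in Ly6C low MoMac of vehicle mice 11 to 15. In Ac-6-FP mice 16 to 20 it had 3875, 3587, 2782, 4091 and 2382 in Ly6C hi and 1394, 1283, 2894, 1407 and 2316 in Ly6C low MoMac. It was higher in Ly6C hi MoMac of 9 of 10 mice, all but mouse 18, in which both subsets had nearly the same value. The difference was 1.10 ± 0.19 on the log2 scale (limma, adjusted p = 0.00414), with an exact sign-flip p of 0.00586. The ranges of the subsets overlapped, from 2382 to 6278 in Ly6C hi and from 1136 to 2894 in Ly6C low MoMac. Without mouse 13 it was 1.12 ± 0.20 (limma, adjusted p = 0.00543).

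Clec4a3 had an estimate of the opposite sign, with a mean of 5294 ± 1206 (SD, n = 10) in Ly6C hi and 8880 ± 3721 in Ly6C low MoMac. Its value was lower in Ly6C hi MoMac of 7 of 10 mice. The difference of -0.66 ± 0.18 on the log2 scale did not pass (limma, adjusted p = 0.0584), and neither did it without mouse 13 (-0.61 ± 0.19, adjusted p = 0.0888), while it passed with a pseudocount of 10, with a term for the genes detected per library (adjusted p = 0.0388) and when mouse 11 or mouse 18 was left out. Clec4a1 ranged from 5821 to 10629 in Ly6C hi and from 6856 to 14513 in Ly6C low MoMac. Its difference was -0.14 ± 0.12 on the log2 scale (limma, adjusted p = 0.612), and -0.16 ± 0.13 without mouse 13 (adjusted p = 0.558). Of these 3 paralogs, Clec4a2 was called higher in Ly6C hi MoMac and Clec4a1 and Clec4a3 had estimates below 0. Clec4a4, which lies in the same 222 kb, had -1.47 ± 0.79 (limma, adjusted p = 0.377). Whether these differences are unlike each other was not tested. Clec4b1, which lies between Clec4a3 and Clec4a2, was lower in Ly6C hi MoMac (-1.85 ± 0.26, limma, adjusted p = 0.00112).

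**Figure D2:**
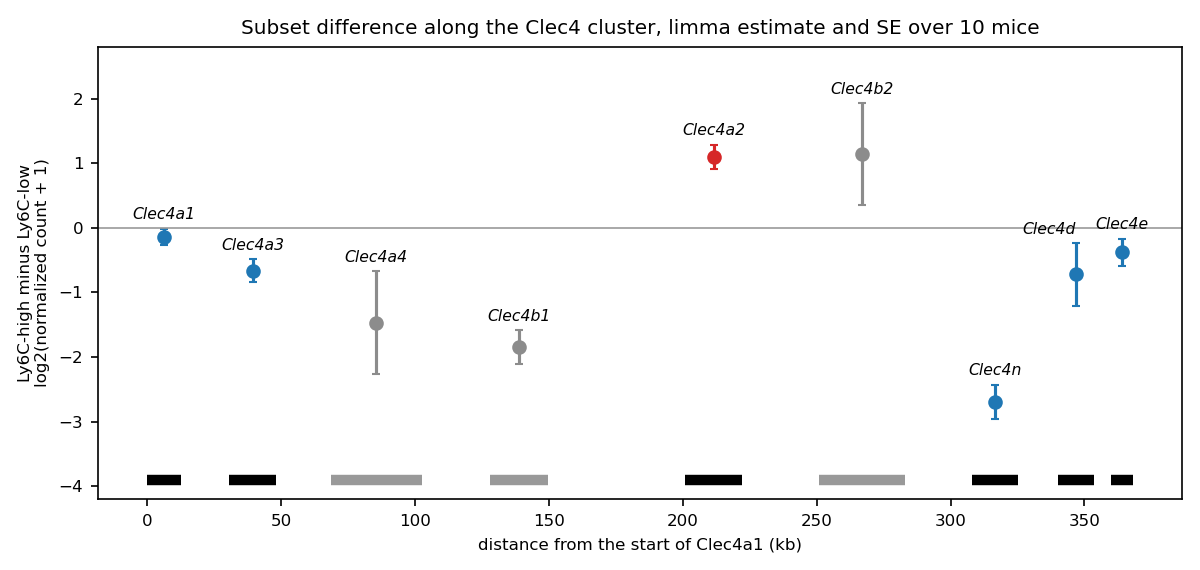
Difference of Ly6C hi minus Ly6C low MoMac, in log2(normalized count + 1), for 9 genes of the Clec4 cluster, plotted against the distance from the start of Clec4a1 in kb. Points and bars are the limma estimate and SE over 10 mice, blue and red points and black blocks (gene spans) are members, and grey ones are other genes. Clec4a2 (1.10) lies above 0 between Clec4b1 (-1.85) and Clec4n (-2.69), and the grey points of Clec4a4 and Clec4b2 have long bars at low counts.

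Clec5a encodes MDL-1, an activating receptor that signals through DAP12 and DAP10 (Hcst). In vehicle mice 11 to 15 it had normalized counts of 3914, 3588, 3709, 2363 and 2841 in Ly6C hi and 625, 1989.7, 0, 676 and 894 in Ly6C low MoMac. In Ac-6-FP mice 16 to 20 it had 2032, 2622, 2244, 1661 and 2142 in Ly6C hi and 193, 643, 2357, 333 and 209.6 in Ly6C low MoMac. Ly6C hi was above Ly6C low in 9 of 10 mice, all but mouse 18, and mouse 13 was listed at 0 in Ly6C low MoMac, where a value of 0 allows up to 3 reads, or 6.26 normalized counts. With all mice the difference was 2.98 ± 0.91 on the log2 scale and did not pass (limma, adjusted p = 0.095), although the exact sign-flip p was 0.00391. Without mouse 13 it was 1.97 ± 0.34, a 3.92-fold difference, and passed (limma, adjusted p = 0.0048, exact sign-flip p = 0.00781).

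Clec7a encodes Dectin-1, the receptor for beta-glucans, which carries its own ITAM-like motif. It had normalized counts of 1513, 1645, 1080.1, 1089 and 1729 in Ly6C hi and 1247, 1675, 0, 793 and 877 in Ly6C low MoMac of vehicle mice 11 to 15. In Ac-6-FP mice 16 to 20 it had 1022, 1315, 1358, 1770.3 and 1534 in Ly6C hi and 640.5, 637, 1094, 801 and 763 in Ly6C low MoMac. Ly6C hi was above Ly6C low in 9 of 10 mice, all but mouse 12, in which both subsets had nearly the same value. The same Ly6C low library of mouse 13 was at 0. With all mice the difference was 1.59 ± 0.83 on the log2 scale (limma, adjusted p = 0.361), and without mouse 13 it was 0.63 ± 0.16, a 1.55-fold difference that passed (limma, adjusted p = 0.0452). With a term for the genes detected per library, Clec5a (adjusted p = 0.00105) and Clec7a (adjusted p = 0.00915) passed with all mice (limma).

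Clec12a encodes MICL, an inhibitory receptor with an ITIM that binds uric acid crystals of dead cells. It ranged from 2139 to 3478 with a median of 2663 in Ly6C hi and from 1894 to 2554 with a median of 2186 in Ly6C low MoMac. Its value was higher in Ly6C hi MoMac of 9 of 10 mice, by 0.32 ± 0.14 on the log2 scale, which did not pass (limma, adjusted p = 0.241, exact sign-flip p = 0.0176), and by 0.30 ± 0.13 without mouse 13 (limma, adjusted p = 0.233). Its SD was 392 around a mean of 2781 in Ly6C hi MoMac (n = 10).

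**Figure D3:**
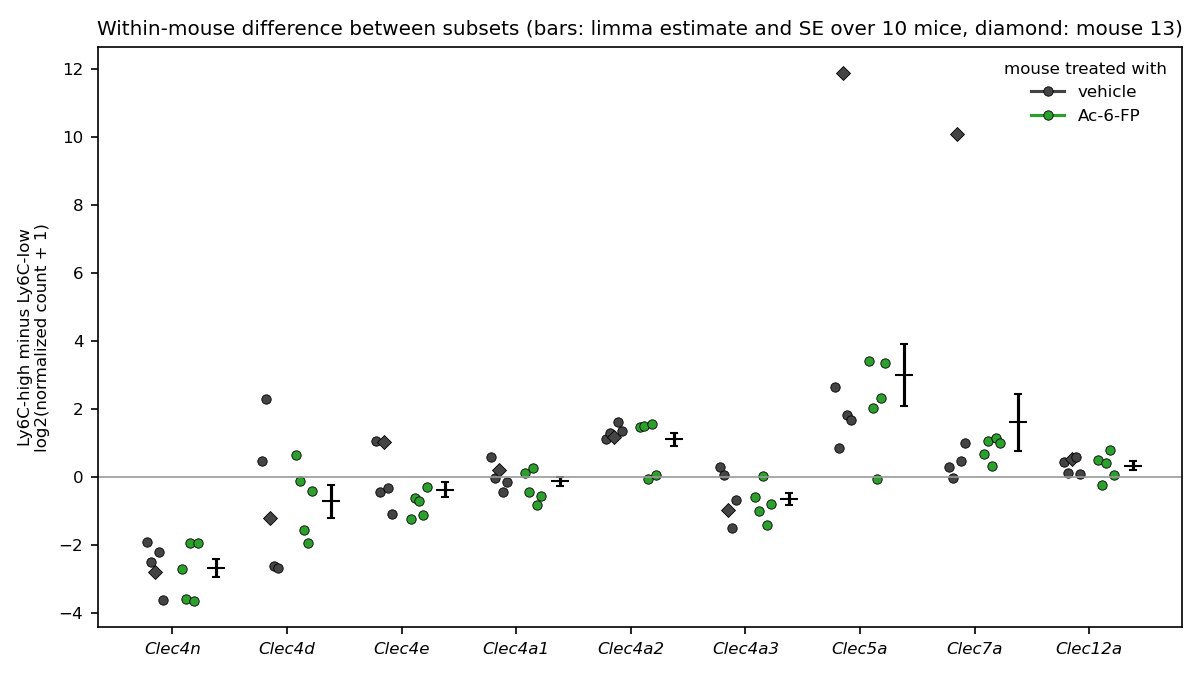
Difference of Ly6C hi minus Ly6C low MoMac within each mouse, in log2(normalized count + 1), for the 9 receptors. Points are mice (grey vehicle, green Ac-6-FP), diamonds are mouse 13, and the mark with a bar is the limma estimate and SE over 10 mice. All 10 points of Clec4n lie below 0, and the diamonds of Clec5a and Clec7a, where the Ly6C low value is 0, lie far above their other points.

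In Ly6C hi MoMac, no receptor passed the test between Ac-6-FP and vehicle mice. The estimates of 8 of 9 were below 0, where 29.0% of all genes tested were, and 43.1% of those with a mean of at least 500. After quantile normalization 8 of 9 were below 0, where 50.6% of all genes were. The values of Clec4a3 did not overlap between treatments, and Clec4e, Clec5a and Clec4n were lower on average by 1.81-fold, 1.52-fold and 2.14-fold with overlapping values. By limma on 5 against 5 mice 0 of 9 members were called, where 0.0754% of all genes were called. At an unadjusted p under 0.05, 4 of 9 were lower (limma), where 2.02% of all genes were lower, and edgeR on recovered reads gave 4 unadjusted (8.93% of all genes in either direction) and 0 adjusted (0% of all genes). The members had a median of -0.34 on the log2 scale, and of -0.19 without mouse 13, where all genes tested had 0.28. All genes tested had a median of 0.35, and 0.06 over the 3379 genes with a mean of at least 500, while quantile normalization put the median of all genes at -0.01 and left that of the members at -0.34.

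Clec4a3 had normalized counts of 5985, 7098, 7345, 5257 and 5483 in Ly6C hi MoMac of vehicle mice 11 to 15 and 4969, 4239, 4234, 4485 and 3843 in those of Ac-6-FP mice 16 to 20. All 5 Ac-6-FP values lay below all 5 vehicle values, as for 0.377% of all genes tested. The change was -0.51 ± 0.11 on the log2 scale (limma, unadjusted p = 0.00162, adjusted p = 0.354), and the exact permutation p was 0.00794, the smallest that 5 against 5 mice allow. Without mouse 13 it was -0.45 ± 0.11. In Ly6C low MoMac the same gene had 4949.8, 6859.9, 14336, 14887 and 8813 in vehicle and 7498, 8474, 4209, 12107 and 6666 in Ac-6-FP mice, which overlapped, with a change of -0.31 ± 0.37 (limma, adjusted p = 0.688), or -0.15 ± 0.38 without mouse 13 (adjusted p = 0.913).

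Clec4e had normalized counts of 4472, 3216, 3927, 4507 and 1948 in Ly6C hi MoMac of vehicle mice 11 to 15 and 1282, 2335, 1714, 2305 and 2144 in those of Ac-6-FP mice 16 to 20. The 4 vehicle mice other than mouse 15 lay above every Ac-6-FP mouse. The change was -0.86 ± 0.27 on the log2 scale (limma, unadjusted p = 0.0105, adjusted p = 0.448, exact permutation p = 0.0317). In Ly6C low MoMac Clec4e had 2146, 4381, 1941, 5625 and 4207 in vehicle and 3049, 3574, 2821, 5017 and 2652 in Ac-6-FP mice, with a change of -0.02 ± 0.33 (limma, adjusted p = 1), or -0.21 ± 0.30 without mouse 13 (adjusted p = 0.797). The 2 treatments overlapped there over nearly their whole range.

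For Clec5a, all but mouse 14 among the vehicle mice lay above the 5 Ac-6-FP mice in Ly6C hi MoMac, at means of 3283 ± 655 and 2140.3 ± 348 (SD, n = 5), and the change was -0.61 ± 0.17 (limma, unadjusted p = 0.00585, adjusted p = 0.382, exact permutation p = 0.0159). For Clec4n, the means were 529.8 ± 211 and 253 ± 129, and the change was -1.10 ± 0.42 (limma, unadjusted p = 0.0293, adjusted p = 0.543, exact permutation p = 0.0556). The vehicle and Ac-6-FP means were 9205 ± 1439.9 and 7753 ± 1088 for Clec4a1, 4272 ± 1244 and 3343 ± 732 for Clec4a2 and 2878 ± 282 and 2685 ± 492 for Clec12a, each with overlapping values and an adjusted p (limma) of at least 0.651. Clec7a, at 1411 ± 308 and 1399.5 ± 277, and Clec4d, at 562 ± 345 and 533 ± 153, had adjusted p-values (limma) of 1 and 0.965. With a term for the genes detected per library the 9 estimates were all below 0, where 41.3% of all genes were. Their median was -0.22, and 0 passed. Clec4n then had -0.83 (limma, unadjusted p = 0.162), against -1.10 without the term. Clec4a3, Clec4e and Clec5a had -0.44, -0.96 and -0.67 (limma, unadjusted p = 0.0158, 0.0244 and 0.0157). Beyond this term, the part of the gene detection that differed between treatments was not tested.

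In Ly6C low MoMac, Clec4n was the one receptor whose values separated the treatments. Its mean was 3099 ± 798 in vehicle and 1609 ± 401 (SD, n = 5) in Ac-6-FP mice, a 1.93-fold lower level, and the highest Ac-6-FP value (1938, mouse 19) lay just below the lowest vehicle value (1967, mouse 11). The change was -0.95 ± 0.26 on the log2 scale (limma, unadjusted p = 0.0049, adjusted p = 0.489, exact permutation p = 0.00794), and it did not pass over all genes. By limma 0 of 9 members were called, where 0.0522% of all genes were called. At an unadjusted p under 0.05 the count was 1 of 9 by limma and 1 by edgeR, with 0 adjusted in edgeR. At that limit 1.44% of all genes were lower by limma and 9.36% moved in either direction by edgeR, and values that did not overlap and were lower with Ac-6-FP occurred in 0.215% of all genes tested. Without mouse 13 the Clec4n change was -0.86 ± 0.27 (limma, adjusted p = 0.642, exact permutation p = 0.00794). With a term for the genes detected per library it was -0.68 (limma, unadjusted p = 0.0212, adjusted p = 0.949). The dendritic cell markers of these libraries summed to a median of 19474 (12433 to 21808) in vehicle and of 14850 (8786 to 21827) in Ac-6-FP mice. Among them, Cd209a had means of 14605 ± 4067 and 9135 ± 4232, Itgax 1155.5 ± 768 and 2125 ± 1018, and Ccr7 2623 ± 2434 and 3685 ± 4062. Their changes on the log2 scale were -0.76 ± 0.35, 2.56 ± 1.96 and 0.10 ± 0.90 (limma). For Ccr7 the change was -0.02 without mouse 13. The 7 markers had a median change of 1.68 on the log2 scale (0.97 without mouse 13), and 0 of 7 were called by limma. The 8 neutrophil markers summed to a median of 38389 (9810 to 56175) in vehicle and of 43815 (19587 to 125978) in Ac-6-FP mice, with 0 of 8 called. The 6 Ly6C low monocyte and macrophage markers summed to a median of 9954 (6820 to 23605) in vehicle mice. In Ac-6-FP mice their sum had a median of 36718 (19120 to 49958), and 0 of 6 were called. The part of any of these cell types in the Clec4n values was not tested. Clec4b1, which was singled out after its values were seen, showed means of 1453 ± 396 and 661 ± 314 in the same libraries (limma, unadjusted p = 0.00841, adjusted p = 0.521).

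The direction of Clec5a and Clec7a in Ly6C low MoMac depended on mouse 13. With it their changes with Ac-6-FP were 0.96 ± 1.95 and 1.51 ± 1.88 on the log2 scale, and without it -1.02 ± 0.76 and -0.51 ± 0.26 (limma, adjusted p = 0.677 and 0.647). The estimates of the other receptors apart from Clec4n ran from -0.31 to 0.14 on the log2 scale, with overlapping values. Without mouse 13 they ran from -0.21 to 0.49. The median over all genes tested was 0.91 on this scale and 0.34 without mouse 13, beside 0.07 and -0.15 for the 9 members. Over the 3379 genes with a mean of at least 500 it was 0.23. After quantile normalization the medians were 0.02 over all genes and -0.01 for the members, and with detection as a covariate 0.06 and -0.10.

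**Figure D4:**
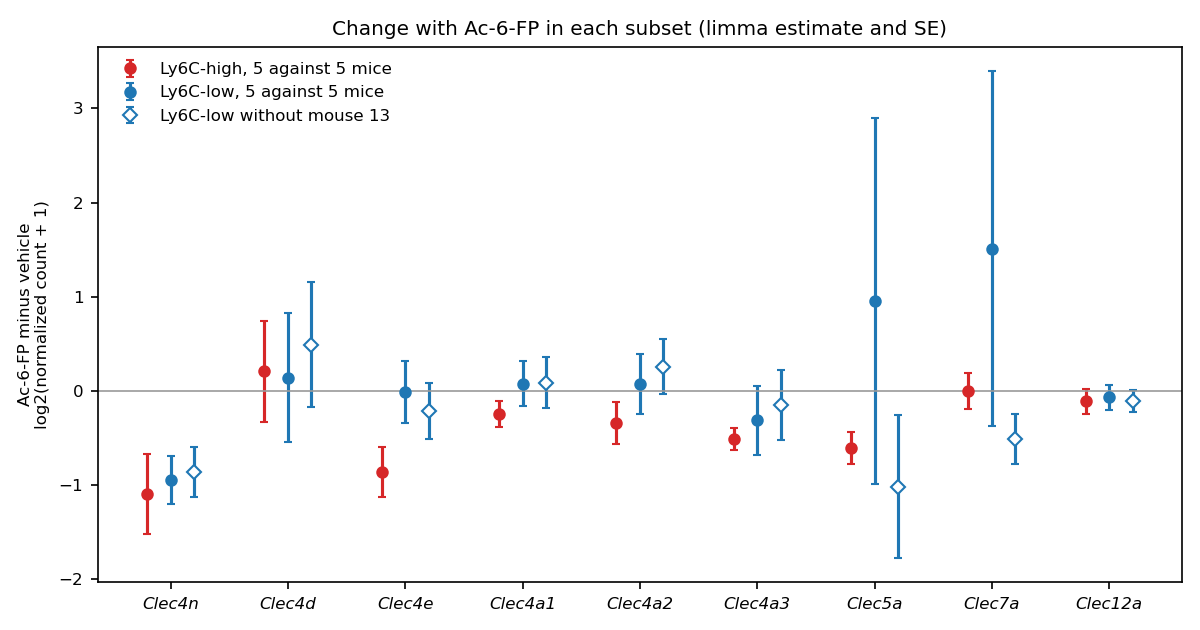
Change with Ac-6-FP against vehicle, in log2(normalized count + 1), for the 9 receptors in Ly6C hi MoMac (red), in Ly6C low MoMac (filled blue) and in Ly6C low MoMac without mouse 13 (open diamonds). Points and bars are limma estimates and SE. Clec4n lies near -1 in both subsets (-1.10 and -0.95), while Clec5a and Clec7a move from above to below 0 in Ly6C low MoMac when mouse 13 is left out.

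Whether the change with Ac-6-FP differed between the subsets was tested on the within-mouse differences. No receptor passed. The estimates of Clec4n, -1.10 in Ly6C hi and -0.95 in Ly6C low MoMac, differed by -0.15 ± 0.52 on the log2 scale (limma, adjusted p = 0.961), and by -0.20 ± 0.53 without mouse 13 (adjusted p = 0.951). Clec4e had the lowest unadjusted p, at -0.84 ± 0.43 (limma, unadjusted p = 0.0748, adjusted p = 0.83, exact permutation p = 0.127), and -0.60 ± 0.40 without mouse 13 (limma, adjusted p = 0.832, exact permutation p = 0.206). By limma 0 of 9 members and 0% of all genes were called, at an unadjusted p under 0.05 the members counted 0 where 4.87% of all genes passed, and edgeR called 0 members adjusted (0% of all genes) or unadjusted (1.81%). The criterion of the study's methods, which weighs ratios to the vehicle mean over the 5 Ac-6-FP mice at an uncorrected p up to 0.05 and a change of 1.5-fold or more, was met by Clec4e and Clec7a, 2 of 9, where 24.3% of all genes met it. It leaves out the spread between vehicle mice, and the Clec7a value of -1.52 became 0.41 without mouse 13.

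Of 26 other C-type lectins, 21 could be tested, and between the subsets 6 were lower and 0 were higher in Ly6C hi MoMac (limma), where 3.41% of all genes were lower and 1.81% higher. Cd209a, a DC-SIGN homolog of monocyte-derived dendritic cells, had means of 257 ± 215 in vehicle Ly6C hi and 14605 ± 4067 in vehicle Ly6C low MoMac. Mgl2, a galactose-binding receptor, had 24.3 ± 41.9 and 944 ± 674, and Mrc1, the mannose receptor, had 0.708 ± 1.58 and 188 ± 192. These 3 were the largest called differences on the log2 scale, at -7.41, -7.39 and -4.58, and they are marker genes of dendritic cells and macrophages. The median over the 21 was -1.47, against -0.14 for the members. With Ac-6-FP 0 of 21 passed in either subset, with 2 and 1 at an unadjusted p under 0.05 in Ly6C hi and Ly6C low MoMac, where 8.73% and 9.31% of all genes passed that limit. Without mouse 13 the numbers called between the subsets were again 6 lower and 0 higher here, and likewise unchanged for the 3 lists that follow.

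Among 18 adaptors and kinases of C-type lectin signalling, 17 could be tested, and 2 were called, both lower in Ly6C hi MoMac, where 3.41% of all genes were lower. Syk and Card9 were not called (limma, adjusted p = 0.654 and 0.13). Their counts were low, with values of 0 in 6 and 11 of 20 libraries. Fcer1g, the FcRgamma chain that the Dectin-2 family needs, had means of 50804 ± 3670.1 in Ly6C hi and 67904 ± 17646 in Ly6C low MoMac of vehicle mice (-0.44 ± 0.08 on the log2 scale, limma, adjusted p = 0.00937). Hcst, which encodes DAP10, had 399.6 ± 84.2 and 1109 ± 436 (-1.26 ± 0.27, limma, adjusted p = 0.0191). NK cells also carry both chains, and their markers were higher in the same libraries. Their part was not tested. Of the 5 inhibitory phosphatases and ubiquitin ligases none was called by limma between the subsets, and 0 of 5 had an unadjusted p under 0.05, where 17.2% of all genes passed that limit. Ptpn6 differed by 0.05 ± 0.14 and Inpp5d by -0.11 ± 0.45 on the log2 scale, the pair with the highest means. With Ac-6-FP limma called 0 of 17 and 0 of 5 in either subset or between them, with 2 to 3 of 17 and 1 to 2 of 5 at an unadjusted p under 0.05, where 8.73% and 9.31% of all genes passed in Ly6C hi and Ly6C low MoMac and 4.87% passed between them.

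Of 15 genes known to respond to these receptors, 13 could be tested, and 4 were lower and 0 higher in Ly6C hi MoMac (limma), where 3.41% of all genes were lower and 1.81% higher. Il10, an anti-inflammatory cytokine, had means of 14.5 ± 32.5 in vehicle Ly6C hi and 695 ± 349.8 in vehicle Ly6C low MoMac, Egr2, an immediate early transcription factor, had 4.25 ± 9.50 and 333 ± 259, and Ccl4, a chemokine, had 1662 ± 808 and 10934 ± 6268. Their differences on the log2 scale were -7.98, -6.90 and -2.51. NK cells are a known source of Ccl4, and their part was not tested. With Ac-6-FP 0 of 13 passed in either subset, with 2 at an unadjusted p under 0.05 in each (limma, 8.73% and 9.31% of all genes).

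Over the 20 libraries, the gene with the pattern most like Clec4n, among 5813 genes with a symbol and a mean of at least 100, was Cd300ld (Pearson r of log2(normalized count + 1) = 0.96), followed by Il2rg (0.92) and Vamp8 (0.91). For Clec4a2 they were Alox5ap (0.90), Anxa1 (0.87) and Fcgr3 (0.86), for Clec4a3 Fcer1g (0.89), Sirpb1a (0.87) and Prr13 (0.87), and for Clec12a Rassf4 (0.78), Plac8 (0.77) and Ifi204 (0.74). For Clec4a1 they were Ms4a4a (0.75), Trem3 (0.75) and Cox20 (0.72), for Clec4d Sh3bgrl (0.75) and Hspa4 (0.75), and for Clec4e Cdc5l (0.73), Sod2 (0.72) and Cdv3 (0.69). For Clec5a they were Mnda (0.96), Ccdc28b (0.95) and Klra2 (0.94), and for Clec7a Mydgf, Dera and Ndufa10 (each 0.99). Without the Ly6C low library of mouse 13 the first gene of Clec4n stayed Cd300ld (0.96), that of Clec5a became Capg (0.91) and that of Clec7a was Mydgf at 0.82. The first gene became Ccdc50 (0.85) for Clec4d, Alg5 (0.78) for Clec4e, Trem3 (0.82) for Clec4a1 and Plac8 (0.78) for Clec12a, and it stayed Alox5ap (0.91) for Clec4a2 and Fcer1g (0.87) for Clec4a3. The genes named above for Clec4d and Clec4e were then no longer among their first 3. Clec5a and Clec7a correlated at 0.93 over 20 libraries, at -0.01 over the 10 Ly6C hi libraries and at 0.71 over the 9 Ly6C low libraries without mouse 13. These correlations are descriptions, since the points share mice, subsets and the detection of each library.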

How the data were processed

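RNA of sorted Ly6C hi and Ly6C low MoMac was sequenced as 75-base reads. The authors aligned them with STAR 2.4.0 to mm10, counted reads on constitutive regions of FAST DB genes and normalized the counts with DESeq2. Strand use is not given in the sources used here. The deposited values are a signal, counts divided by 1 size factor per library, with 2 decimals. Dividing by the step of each library gave whole reads for 99.998% of values above 0 (tolerance 0.006). Recovery was not claimed for the Ly6C hi library of mouse 15, whose step of 0.989 lay close to 1, and edgeR was therefore also run without mouse 15. Values of 0 allow up to 3 reads, counting error only.

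Libraries were grouped by title and treatment label, and paired by mouse, since both subsets came from 1 liver (residuals of the same mouse correlated at a median of 0.034). Genes with a mean of at least 10 in 1 of 4 groups were kept (17248, including all 9 members). limma 3.58.1 with a trend was run on log2(normalized count + 1), two-sided, with Benjamini-Hochberg adjustment over these genes, in R 4.3.3, beside exact permutation tests for single members. A fold change on this scale understates the change of low genes. edgeR 4.0.16 on recovered reads, other pseudocounts, filters and scalings, detection as a covariate and leaving out each mouse were alternatives. The fits were tested on simulated data. Members and lists were chosen with earlier results of these data known. Named genes were the 9 members and, per list, up to 3 called genes by size of the log2 difference, or the 2 of highest mean. Syk and Card9 are given besides, as parts of the signalling route described at the start. Lyz2, Trac and Serpina1c of the marker lists were not found by symbol. 1 gene of similar pattern to Clec4d is not reported here.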

Additional observations from a re-analysis of the deposited data

Results flagged for a closer look

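Among 36 groups of 5 libraries (9 receptors in 4 groups), 2 held a value set apart from the other 4 by Dixon's test, and chance gives about 1 in 20. Clec4a1 in Ly6C hi MoMac was lowest in Ac-6-FP mouse 20, at 5821 normalized counts, where the other Ac-6-FP mice lay between 8031 and 8386. Clec5a in Ly6C low MoMac was highest in Ac-6-FP mouse 18, at 2357, where the others lay between 193 and 643, and this mouse is the one in which Clec5a was not higher in Ly6C hi MoMac.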

How the results depend on the processing

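The calls of Clec4n and Clec4a2 between the subsets held under every alternative run. The number of receptors called there was 4 with a pseudocount of 10 (1023 of all genes), 5 with detection as a covariate and 2 to 4 with each mouse left out, 4 being the count without mouse 13. Without the replicate block by mouse it was 3, with Clec4a3, and 987 of all genes were called, against 900 with the pairing. The interaction kept 0 receptors without the replicate block and gave 2 under the study's criterion as applied here. Over all genes, subset calls numbered 1848 with the covariate, 511 with edgeR and 392 with edgeR without mouse 15, an alternative added after seeing the data, and 655 to 1151 with each mouse left out. In Ly6C hi MoMac 13 genes were called with Ac-6-FP, 0 to 133 with each mouse left out (133 without mouse 11) and 0 with edgeR, quantile normalization or the covariate. In Ly6C low MoMac 9 were called, and 0 to 103 with each mouse left out (103 without mouse 11). The interaction gave 3 genes without the replicate block, 2 when genes needed a group mean of 100, 1 after quantile normalization and 4185 under the study's criterion as applied here. 0 receptors were called with Ac-6-FP in either subset under any alternative.

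Estimates that changed sign all missed the threshold. The cause was not tested. In Ly6C hi MoMac, Clec4d with Ac-6-FP was -0.023 with the covariate, -0.081 with edgeR and -0.336 with edgeR without mouse 15, and Clec7a was 1.6e-05 and 0.062 with the 2 edgeR fits. In Ly6C low MoMac, Clec4a1 was -0.0059 after quantile normalization, Clec4a2 was -0.083 with edgeR without mouse 15, and Clec4d was -0.159 and -0.178 with the 2 edgeR fits. Clec5a there was -0.749 with the covariate and -0.265 and -0.245 with the edgeR fits, and Clec7a was -0.718, -0.285 and -0.305. For the interaction, Clec4d was -0.371 with edgeR without mouse 15 and Clec12a was 0.0087 with edgeR. With each mouse left out, the Ly6C hi estimates ran from -0.192 to 0.441 for Clec4d and from -0.097 to 0.101 for Clec7a. The Ly6C low estimates ran from -0.080 to 0.227 for Clec4a1, -0.107 to 0.255 for Clec4a2, -0.419 to 0.488 for Clec4d, -0.214 to 0.170 for Clec4e, -1.02 to 1.72 for Clec5a and -0.509 to 2.17 for Clec7a. The interaction ran from -0.431 to 0.013 for Clec4a3, -0.414 to 0.823 for Clec4d, -0.403 to 0.069 for Clec4n, -2.29 to 0.46 for Clec5a, -2.11 to 0.413 for Clec7a and -0.169 to 0.093 for Clec12a.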
